A study of Mus musculus with 100 samples.

Results

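In mouse embryonic fibroblasts (MEFs) from an F1 hybrid cross, 48 autosomal genes were read almost wholly from 1 parental allele, and these genes were followed into pluripotent cells of the same type of cross. A gene was included if each of the 3 MEF libraries held at least 20 reads that could be assigned to an allele and if the maternal allele gave at most 10% of them in all 3 libraries or at least 90% in all 3. Of 25965 genes in the expression table, 24483 were autosomal, 9030 of these passed the read minimum and 48 (0.532%) met the limits, 22 on the maternal side and 26 on the paternal side. The genes were chosen by their MEF shares and reads, so these values are given as a description without a test.

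The MEFs were female and came from an i4F-BL6 mother, which carried a doxycycline-inducible cassette of the 4 reprogramming factors on a C57BL/6J (BL6) background, and a CAST/EiJ (CAST) father. F KSR2 and F KSR4 were induced pluripotent stem cell (iPSC) lines from female MEFs of this cross, and M KSR3 and M KSR5 were lines from male MEFs. Each of these KSR-iPSC lines was grown from a picked colony after doxycycline treatment, in medium with knockout serum replacement (KSR) and LIF, so each is 1 clone. TX 2i ESCs were the female embryonic stem cell line TX1072, also a hybrid of BL6 and CAST, kept in serum and LIF with the inhibitors CHIR99021 and PD0325901 (2i). Each group had 3 libraries of strand-specific polyA RNA-seq, which the labels call biological triplicates without saying whether cultures were separate, so the p-values measure the spread among these libraries. The iPSC lines and TX 2i ESCs differed in origin, clone and medium, and these cannot be told apart. All hybrids read here were described as BL6 on the maternal and CAST on the paternal side, with no reciprocal cross, so parent of origin and strain cannot be told apart from the MEFs alone.

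At an imprinted gene, DNA methylation set in the egg or the sperm marks 1 parental copy at a control region, and the embryo then uses the gene mostly from 1 parent's copy. The marks are kept through the wave of demethylation in the early embryo, with the zinc finger protein ZFP57 binding the methylated copy, and many imprinted genes act on fetal growth and placental function. A gene can also be read from 1 allele because the 2 strains differ in or near the gene. Such a difference can hold in every cell type that uses the gene or only in some. A share that becomes two-sided therefore does not by itself mark a gene as imprinted.

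The libraries held between 13183036 and 17921280 reads on genes, of which 2511175 to 3543420 could be assigned to an allele. The summed level of 15 fibroblast markers was 3.94 to 5.15% of reads in MEFs and 0.0902 to 0.264% in the pluripotent libraries, where it was 2.02 to 5.91% of the MEF mean, and none of the 15 was at 0 in all MEF libraries. The 10 pluripotency markers, Pou5f1 and Nanog among them, summed to 0.453 to 0.905% of reads in the pluripotent libraries and at most 0.000257% in MEFs, with 4 of 10 at 0 there. Per the study's methods, picked iPSC colonies were plated on feeder cells, whose strain is not given there. The part of fibroblast or feeder RNA in the shares of genes high in MEFs, such as H19, Igf2, Grb10 and Thy1, was not tested. Several chromosomes were unbalanced as wholes. Genes of chromosome 6 were read at a mean maternal share of 96.8% for F KSR2 (93.3 to 98.7% in its libraries), genes of chromosomes 4 and 16 at 32.4 and 34.9% in TX 2i ESCs, and chromosomes 1, 8 and 11 of M KSR3, 8 of F KSR4 and 15 of M KSR5 had means above 60%. Single libraries ranged from 56.4 to 65.9% on chromosome 8 of F KSR4 and from 56.1 to 65.2% on chromosome 15 of M KSR5. For this reason each share is read beside the median share of the other genes within 5 Mb. M KSR5 replicate 3 stood apart from the other M KSR5 libraries at imprinted genes, for example with 25.8% maternal reads of Mest against 3.41 and 4.19%, and several shares and calls that change without it are given both ways.

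Of the 48 genes, 19 were on a list of 82 known mouse imprinted genes, and all 19 were read from the allele for which the gene is listed, 13 paternal and 6 maternal. The list was written with earlier results of these data known, so counts of listed genes, here and below, are a description. The other 29 genes were not on the list, among them Igf2as, an antisense transcript at the listed gene Igf2. A further 23 listed genes passed the read minimum without meeting the limits, and 32 of the 74 listed genes in the table fell below the minimum. Chromosome 7 held 10 of the 48 genes, more than any other chromosome, and 11 genes had another of the 48 starting within 1 Mb, of which 10 were listed. Pseudogenes were frequent: 11 of the 46 genes matched by name to GENCODE vM21 were annotated as such (23.9%), against 24 of 8214 matched genes past the read minimum (0.292%). Another gene on the same strand overlapped 9 of the 48 and one on the opposite strand 17, and for the former the reads cannot be told apart. The counts by chromosome, distance and overlap were not set against all genes past the read minimum, so they describe these genes only.

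**Figure D1:**
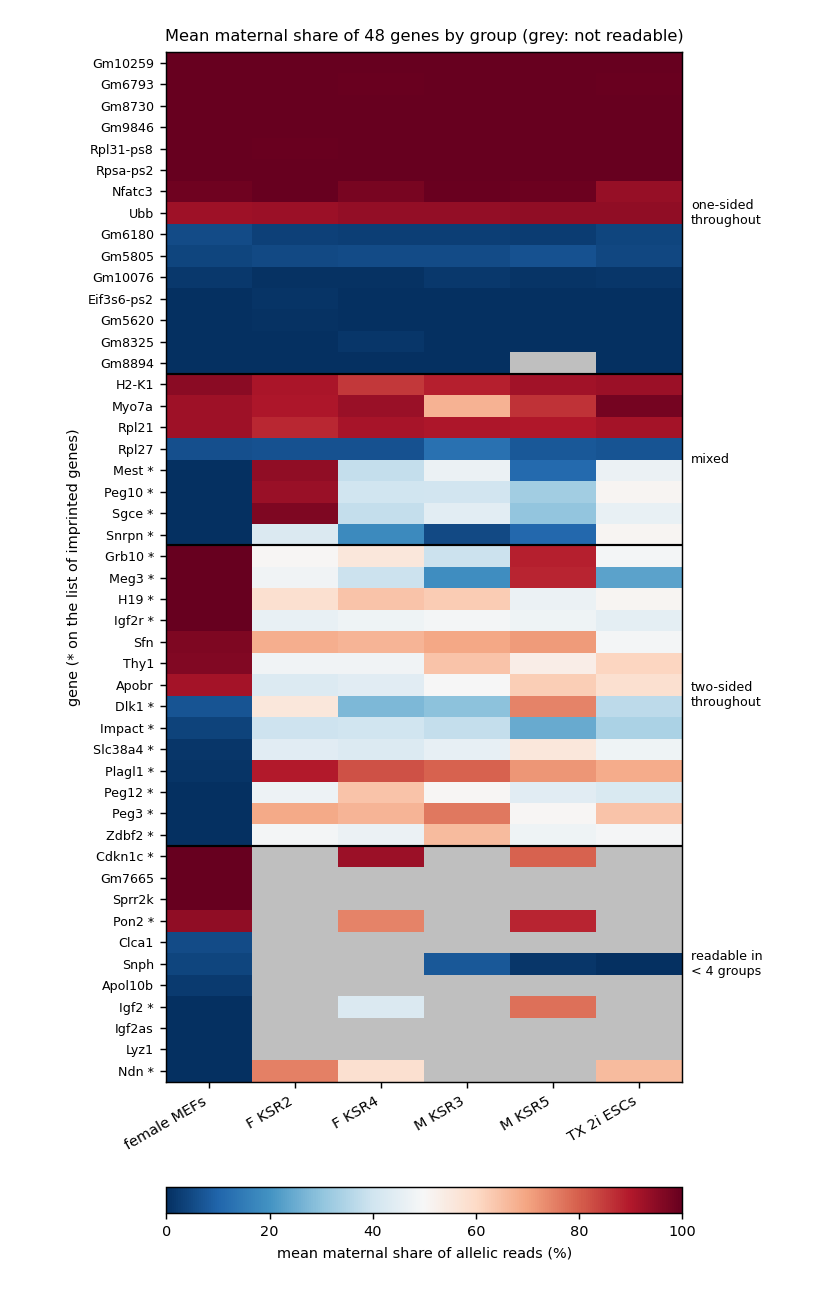
Mean maternal share (% of allelic reads, colour scale) of the 48 genes in female MEFs and the 5 pluripotent groups, 1 row per gene, ordered by class, with an asterisk at each listed imprinted gene and grey where fewer than 2 of 3 libraries held 10 allelic reads. The 15 genes of the class that remained one-sided keep their colour across the row, and 79 of the 84 readable cells of listed genes are between the limits.

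The share of a gene was read in a pluripotent group where at least 2 of 3 libraries held 10 or more allelic reads. With the limits of 10 and 90% kept, 15 of the 48 genes could be read in at least 4 of the 5 groups and were one-sided, on the MEF allele, in each, and none of the 15 was listed. A further 14 genes, also read in at least 4 groups, were two-sided in each, and 11 of these were listed. Another 8 genes were one-sided in some groups and not in others (4 listed), and 11 could be read in fewer than 4 of the 5 groups (4 listed). Over all 84 readable pairs of a listed gene and a pluripotent group, the share was two-sided in 79, remained one-sided in 2 and had passed to the other allele in 3. For comparison, the share of all autosomal genes read that were at or past 10 or 90% was 7.86% for F KSR2, 1.57% for F KSR4, 2.31% for M KSR3, 1.42% for M KSR5 and 2.51% for TX 2i ESCs.

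Promoters of Mest, Zdbf2, Plagl1 and Meg3 are shown as examples from the listed genes that held the motif below, which were these 4, Snrpn, Igf2 and Grb10. For each gene the start with the most motif matches was taken. Each is 250 bases before to 50 bases after a RefSeq start on GRCm38.p6, on the plus strand, with the ZFP57 motif TGCCGC and its reverse complement GCGGCA in capitals. The Mest window is chr6:30737800-30738099, with 17 CpG and 2 motif matches.
Mest: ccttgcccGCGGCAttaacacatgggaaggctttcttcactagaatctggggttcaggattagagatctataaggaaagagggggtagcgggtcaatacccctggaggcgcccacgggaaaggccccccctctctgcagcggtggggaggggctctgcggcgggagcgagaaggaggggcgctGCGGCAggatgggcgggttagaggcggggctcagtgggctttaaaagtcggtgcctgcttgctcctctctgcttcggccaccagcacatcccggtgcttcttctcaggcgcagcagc
The Zdbf2 window, chr1:63200108-63200407, lies at an upstream start of the gene, whose measured feature begins at 63273265, and holds 15 CpG and 3 matches.
Zdbf2: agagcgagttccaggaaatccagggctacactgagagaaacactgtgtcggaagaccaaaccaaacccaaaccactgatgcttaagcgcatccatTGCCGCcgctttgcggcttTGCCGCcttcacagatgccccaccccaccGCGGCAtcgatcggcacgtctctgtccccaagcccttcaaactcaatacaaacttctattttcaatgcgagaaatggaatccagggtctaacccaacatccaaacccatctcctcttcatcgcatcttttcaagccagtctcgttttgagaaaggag
The Plagl1 window, chr10:13090582-13090881, holds 26 CpG and 1 match.
Plagl1: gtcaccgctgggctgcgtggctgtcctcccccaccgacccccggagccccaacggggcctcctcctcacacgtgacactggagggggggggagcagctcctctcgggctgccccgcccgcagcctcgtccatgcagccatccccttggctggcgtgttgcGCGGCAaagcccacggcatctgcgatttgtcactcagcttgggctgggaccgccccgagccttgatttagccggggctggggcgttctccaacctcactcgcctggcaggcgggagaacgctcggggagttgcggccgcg
The Meg3 window, chr12:109540746-109541045, holds 13 CpG and 1 match.
Meg3: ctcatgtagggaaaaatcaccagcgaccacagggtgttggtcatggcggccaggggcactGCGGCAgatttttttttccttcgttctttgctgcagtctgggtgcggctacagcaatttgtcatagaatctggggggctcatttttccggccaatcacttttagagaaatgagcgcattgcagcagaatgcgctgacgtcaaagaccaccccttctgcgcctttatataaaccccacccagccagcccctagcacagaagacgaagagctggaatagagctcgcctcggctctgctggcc
A promoter entry was found for 25 of the 48 genes. At least 1 window held the motif for 7 of the 14 listed genes with an entry (50%) and for 2 of the 11 others, where 13.1% of the 27025 genes in the promoter table and 11.6% of its 32851 windows did. Some listed genes, such as Snrpn and Igf2, had several windows, each a further place for a match, and this was not adjusted for. The motif holds a CpG, and the windows shown had 13 to 26 CpG against a median of 7 over all windows. A match is a description of the letters, and windows without one say nothing of the protein.

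The paternally read listed genes had maternal reads in the pluripotent cells. Peg10, a retrotransposon-derived gene needed for the placenta, had 637, 455 and 340 allelic reads in the MEF libraries and none of them was maternal, which allows a maternal share of up to 0.882% in the shallowest. Its maternal share was 44.5, 45.8 and 30.2% for F KSR4, 45.5, 37.4 and 38.7% for M KSR3, 29.8, 27.5 and 40.1% for M KSR5 and 54.8, 50.9 and 47.2% for TX 2i ESCs. In F KSR2 it was 93.4, 96.7 and 88.8%, so there the paternal allele that carried the gene in MEFs was the minor one. None of the pluripotent libraries overlapped the MEFs.

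Its neighbour Sgce, which encodes epsilon-sarcoglycan, and Mest, which encodes a protein of the hydrolase family elsewhere on chromosome 6, showed the same passage to the maternal allele in F KSR2. Sgce had 100, 97.2 and 92.9% maternal reads there, and Mest 96.7, 96.3 and 90.1%. The other genes within 5 Mb had median shares of 96.4% around Sgce and Peg10 and 96.9% around Mest, so these 3 genes did not stand out from their surroundings in that line. In the other groups, where these neighbours lay between 48.2 and 54.6%, the mean share of Mest was 38 ± 14.2% (SD, n = 3) for F KSR4, 47.1 ± 2.89% for M KSR3 and 47 ± 1.93% for TX 2i ESCs. In M KSR5 the Mest share was 3.41, 4.19 and 25.8%, a mean of 11.1% that was 3.8% without replicate 3. Mest was therefore two-sided in M KSR5 only with that library.

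Peg3 and Plagl1 were read more from the maternal than from the paternal allele in most groups. Peg3, a zinc finger gene, had no maternal read among 461, 560 and 413 allelic reads in MEFs. Its maternal share was 75.9, 68.8 and 61.9% for F KSR2, 68.7, 63.4 and 68.8% for F KSR4, 73.8, 75.6 and 80% for M KSR3 and 66.9, 65 and 61% for TX 2i ESCs. These 4 groups lay above 60% in every library, while M KSR5 had 44.5, 47.9 and 59.3%, and neighbouring genes had medians between 51.6 and 53.4% in all 5. Against the library medians, Peg3 was called to the maternal side in those 4 groups (log2 ratio 1.02 ± 0.18 SE and adjusted p = 0.0144 by limma in F KSR2) and not in M KSR5 (-0.11 ± 0.13, adjusted p = 0.572).

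Plagl1, a zinc finger transcription factor that regulates other imprinted genes, had the largest difference in share from MEFs among listed genes whose surroundings were balanced. Its maternal share was 1.52, 0.235 and 0.718% in MEFs. It reached 87.5, 91.1 and 90.5% for F KSR2, 86.8, 86.1 and 72.1% for F KSR4, 79.4, 81 and 77.8% for M KSR3, 81.8, 66.7 and 67.3% for M KSR5, and 69.2, 68.5 and 67.5% for TX 2i ESCs. All pluripotent libraries were above 66%, neighbouring genes had medians from 51.2 to 52.3%, and the call to the maternal side held in all 5 groups (log2 ratios from 1.06 ± 0.07 in TX 2i ESCs to 2.90 ± 0.19 in F KSR2, adjusted p from 2.1e-08 to 0.0319 by limma). The depth differed, since M KSR5 replicate 1 rested on 11 allelic reads (Wilson 95% interval of 52.3 to 94.9%). Without F KSR2 replicate 1 the mean of that line was 90.8% in place of 89.7%, past the limit for a switch.

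Snrpn, which encodes a protein of the splicing machinery, differed between groups while the genes around it had medians of 49.6 to 54.4%. No MEF read was maternal. Its maternal share was 48.1, 52.1 and 53.1% for TX 2i ESCs, 40.4, 39.2 and 48.7% for F KSR2, 18, 21.5 and 14.9% for F KSR4, 6.67, 4.76 and 3.48% for M KSR3, and 5.65, 4.36 and 22.1% for M KSR5. Read from the highest group down, TX 2i ESCs and F KSR2 overlapped in 1 library each, F KSR4 lay apart from both, and the 2 male lines overlapped each other. F KSR4 was not apart from M KSR5, whose replicate 3, at 22.1%, lay above every F KSR4 library. Snrpn remained one-sided in M KSR3 (4.97 ± 1.6%), and without replicate 3 it was so in M KSR5 also (5.01%).

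The remaining listed paternal genes were two-sided wherever they were read. Zdbf2, a zinc finger gene, had 31, 41 and 47 allelic reads in MEFs, all paternal, and its group means were 47.2 to 49.5% except in M KSR3, where 65.9 ± 1.02% stood beside a neighbour median of 68.2%. Slc38a4, an amino acid transporter, had group means of 43.2 to 47.9% except in M KSR5, where 58.9, 57.4 and 51% stood beside 62.8%. Impact, an inhibitor of the translation kinase GCN2, had group means below its neighbours throughout, with 40.1, 37.8 and 41.2% for F KSR2, 35.3, 53 and 31.8% for F KSR4, 38.9, 37.8 and 37.8% for M KSR3, 21.3, 24.5 and 28.6% for M KSR5 and 32, 36.9 and 33% for TX 2i ESCs. It was the only listed gene called to its MEF allele in all 5 groups (log2 ratios from -1.75 ± 0.11 in M KSR5 to -0.75 ± 0.21 in F KSR4, adjusted p from 4.2e-10 to 0.0404 by limma). Peg12, a relative of the FRAT proteins that bind the kinase GSK3, had group means of 42.4 to 64.4% from at most 48 allelic reads a library. Dlk1, a membrane protein of the Notch ligand family, had means of 27.5 to 74.8% from at most 38 allelic reads, with libraries of 1 line as far apart as 6.45 and 47.8% in M KSR3.

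Igf2, the fetal growth factor, and Ndn, a growth-restraining protein of the MAGE family, could be read in fewer than 4 groups. Igf2 had 4896, 5543 and 4623 allelic reads in MEFs, of which 1 was maternal, and at most 28 in any pluripotent library. Its maternal share was 51.9 and 33.3% in the F KSR4 libraries that could be read, and 82.1, 94.4 and 56.5% in M KSR5, where it was called to the maternal side (log2 ratio 1.85 ± 0.55, adjusted p = 0.0275 by limma). Ndn had no maternal read in MEFs and means of 75.3% for F KSR2, 58.2% for F KSR4 and 65.7% for TX 2i ESCs from at most 22 reads a library.

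**Figure D2:**
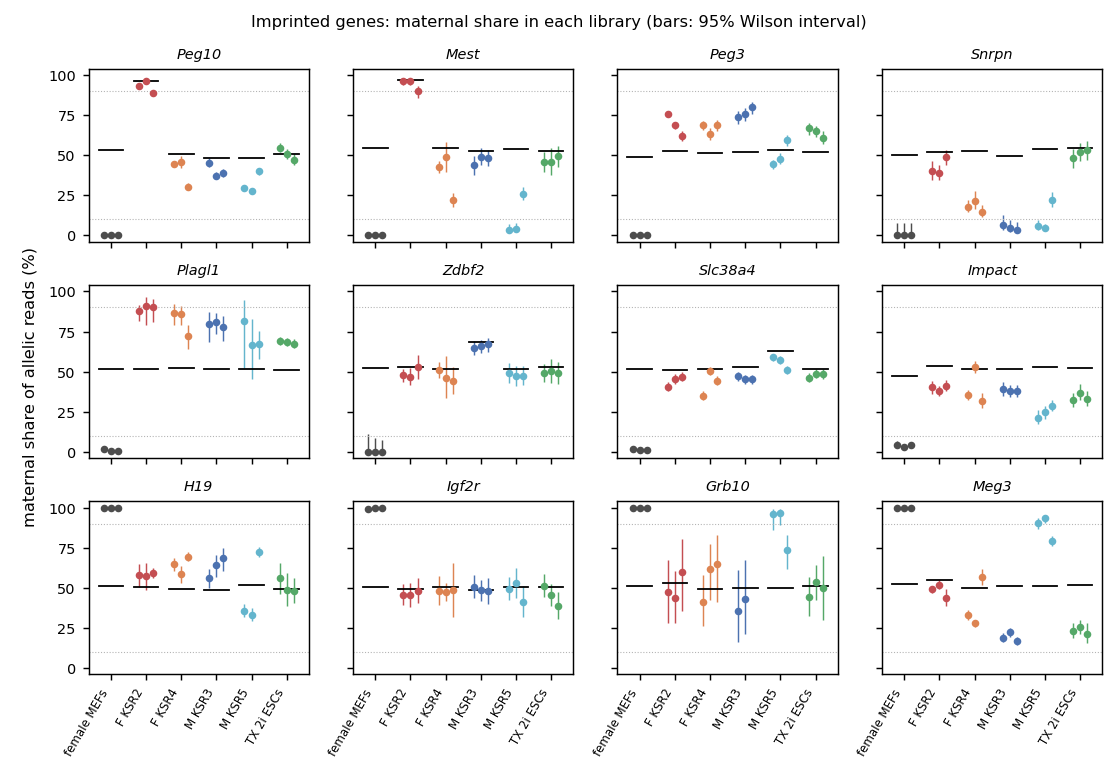
Maternal share (%) of 12 listed imprinted genes in each library with at least 10 allelic reads, by group, with Wilson 95% intervals, the median share of neighbouring genes within 5 Mb as a black dash, and dotted lines at 10 and 90%. MEF points lie at 1 edge for every gene, and most pluripotent points leave it, with points past the limits on the MEF side for Snrpn in all M KSR3 libraries and, in M KSR5 replicates 1 and 2, for Snrpn, Mest, Grb10 and Meg3.

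The maternally read listed genes had paternal reads in the pluripotent cells, with M KSR5 the highest in maternal share of the groups that could be read for Grb10, Meg3 and Pon2. H19, a non-coding RNA next to Igf2, had 99.8, 100 and 99.9% maternal reads in MEFs. Its share was 58, 57.3 and 59.5% for F KSR2, 64.8, 58.5 and 69.5% for F KSR4, 55.8, 64 and 68.4% for M KSR3, 35.7, 33 and 72.5% for M KSR5 and 56.1, 48.8 and 48.1% for TX 2i ESCs. In M KSR5, replicate 3 thus lay on the other side of 50% from replicates 1 and 2. Igf2r, the receptor that clears Igf2, went from 99.4, 99.9 and 99.7% in MEFs to group means between 45.2 and 49%, with no group called to either side.

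Grb10, an adaptor that dampens insulin and growth factor signalling, had 1 paternal read among 1181, 1100 and 825 allelic reads in MEFs. It had 47.6, 43.8 and 60% maternal reads in F KSR2, 41.2, 61.5 and 64.7% for F KSR4 and 44.3, 53.4 and 50% for TX 2i ESCs, but 95.9, 96.8 and 73.8% for M KSR5. Meg3, a long non-coding RNA of the Dlk1 region, was read to 49.1, 52 and 43.7% from the maternal allele in F KSR2, 32.9, 27.8 and 56.8% for F KSR4, 18.8, 22.1 and 16.5% for M KSR3, 90.7, 93.3 and 79.5% for M KSR5 and 23.1, 25.4 and 20.9% for TX 2i ESCs. M KSR3 and TX 2i ESCs thus read Meg3 mostly from the paternal allele, which was near 0 in MEFs, and both were called to that side (log2 ratios -2.29 ± 0.08 and -1.78 ± 0.13, adjusted p = 6.9e-18 and 4.4e-07 by limma). M KSR5 read it mostly from the maternal allele, and without replicate 3 its mean was 92% and that of Grb10 96.3%, both past the limit for one-sided.

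Cdkn1c, an inhibitor of cyclin-dependent kinases, and Pon2, a paraoxonase, had few reads outside MEFs. Cdkn1c had 62, 101 and 134 allelic reads in MEFs, all maternal. It remained one-sided in F KSR4 with 92.6, 93.8 and 92.3% from 27, 32 and 39 reads, and M KSR5 had 82.9 and 75.9% in the libraries that could be read. Pon2 had 93.7, 92.6 and 96.7% in MEFs, 89.5 and 60% in F KSR4 from 19 and 10 reads and a mean of 88.1% in M KSR5 from 10 to 12 reads a library, and its 3 reads or fewer in TX 2i ESCs give no share.

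In most cases both alleles stood at other levels than in MEFs. Among the 84 readable pairs of a listed gene and a group, the allele used in MEFs was at a lower level than in MEFs in 64, the other allele was at a higher level in 77, and both held in 57. The genes were chosen for a second allele near 0 in MEFs, which largely fixes these directions. These levels are allelic reads per 1000000 reads on genes (RPM), not corrected for length, and in bulk RNA fewer cells using a gene and less RNA per cell cannot be told apart. The maternal allele of H19 was at 1189 ± 38.7 RPM in MEFs, at 3.78 ± 1.42 in TX 2i ESCs and at 7.91 ± 1.8 to 30.2 ± 24.3 in the iPSC lines, while its paternal allele was at 1.38 ± 1.22 in MEFs and between 3.7 and 20.1 elsewhere. Peg10 differed, since its paternal allele was at 29 ± 11.7 in MEFs and at 30.5 ± 4.93 for TX 2i ESCs, 56.8 ± 5.83 for M KSR3 and 115 ± 26.4 for M KSR5, with the maternal allele at 32.4 ± 9.89, 38.6 ± 2.95 and 53.8 ± 4.18 in the same groups. In F KSR2 its paternal allele was at 7.99 ± 8.8 and its maternal allele at 87 ± 50.4. Plagl1 held its paternal level best in TX 2i ESCs (24.6 ± 3.65 against 43.2 ± 7.63 in MEFs), where its maternal allele stood at 53.4 ± 9.73, and both alleles were at or below 6.8 in the iPSC lines.

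**Figure D3:**
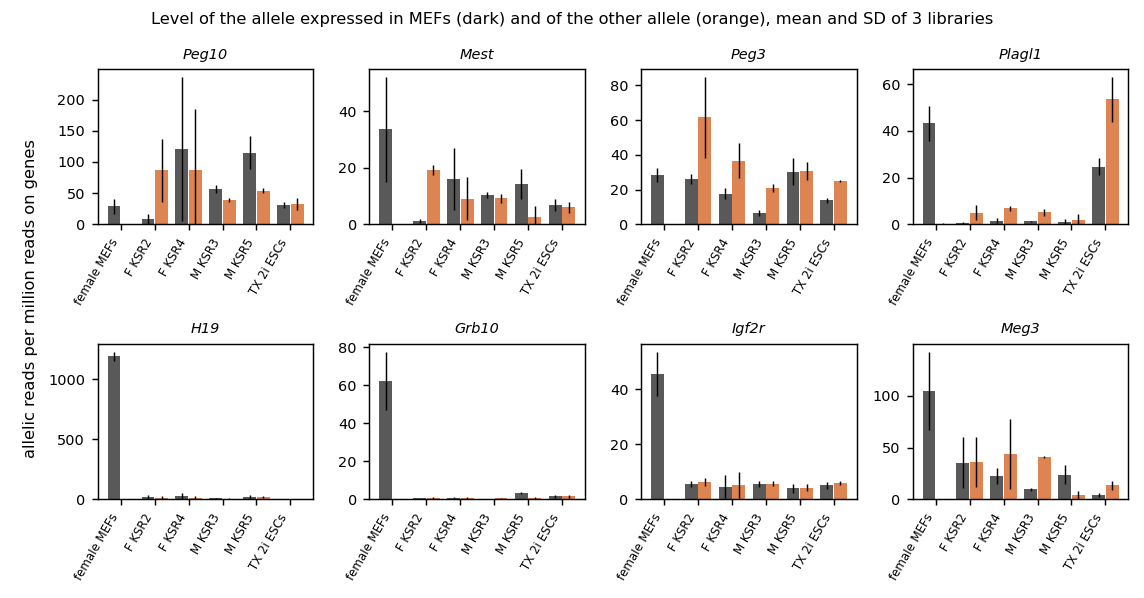
Allelic reads per 1000000 reads on genes for 8 listed imprinted genes by group, as mean ± SD of 3 libraries, with the allele used in MEFs in dark and the other allele in orange. The second allele, near 0 in MEFs, is present in all pluripotent groups, beside a lower MEF allele for H19, Grb10, Igf2r, Meg3, Mest and Plagl1.

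Whether the MEF side was kept was tested in each pluripotent group, which the choice of genes did not use, by limma on the log2 ratio of maternal to paternal reads after each library was centred on its median. Over both sides, 23 of 35 genes tested were called to the MEF side in F KSR2, 26 of 37 for F KSR4, 27 of 36 for M KSR3, 28 of 38 for M KSR5 and 21 of 38 for TX 2i ESCs, where 24.3, 16.8, 44.1, 27.1 and 35.5% of all genes tested were called to either side. These shares over all genes depended on single libraries, with 1061 and 1060 calls in place of 2315 without F KSR2 replicates 1 and 2, 777 and 643 in place of 1517 without F KSR4 replicates 1 and 2, and 1629 and 1517 in place of 2630 without M KSR5 replicates 1 and 2. In F KSR2, 12 of 18 genes that were maternal in MEFs were called to that side (background 14.3% of all genes tested) and 11 of 17 paternal ones (10.1%). The counts were 14 of 19 and 12 of 18 for F KSR4 (9.99 and 6.81%), 13 of 17 and 14 of 19 for M KSR3 (24.7 and 19.5%), 15 of 19 and 13 of 19 for M KSR5 (14.9 and 12.2%) and 12 of 18 and 9 of 20 for TX 2i ESCs (16.8 and 18.7%). Most of these were unlisted genes, of which 20 of the 22 tested were called in each group, not all of them the same genes. Of the listed genes, 3 of 13 were called to the MEF side in F KSR2, 6 of 15 for F KSR4, 7 of 14 for M KSR3, 8 of 16 for M KSR5 and 1 of 16 for TX 2i ESCs.

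Calls to the side opposite to that of the MEFs were made for listed genes only. They were Sgce, Peg10, Mest, Peg3 and Plagl1 for F KSR2, Peg3 and Plagl1 for F KSR4, Zdbf2, Peg3, Plagl1 and Meg3 for M KSR3, Igf2 and Plagl1 for M KSR5, and Peg3, Plagl1 and Meg3 for TX 2i ESCs. The 3 chromosome 6 genes of F KSR2 and Zdbf2 of M KSR3 lay on chromosomes that were unbalanced as wholes in those lines, so gene and chromosome cannot be told apart there.

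The share differed among the 5 pluripotent groups for 14 of 33 genes tested (42.4%), where 31.4% of all 8455 genes did. These were 10 of 12 listed genes, all but H19 and Igf2r, and 4 of 21 unlisted ones, Sfn, Myo7a, Nfatc3 and Rpl27. Group means of Mest spanned 83.2 percentage points, those of Meg3 68.7 and those of Snrpn 46.2, while those of Nfatc3 and Rpl27 spanned 6.57 and 6.31. Mest, Sgce and Peg10 were highest in F KSR2, where the genes around them stood at 96.4 or 96.9%. Zdbf2 and Rpl27 were highest in M KSR3 and Slc38a4 in M KSR5, where their neighbours were also read more from the maternal allele. The part of this imbalance in the spans was not tested.

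Between female and male iPSCs no gene of the 33 was called for its share (background 0.0231%), although 8 had an unadjusted p under 0.05 by limma, as had 1255 of the 8648 genes tested, and with the mean of each line as the unit again none was called. Snrpn was nearest, with a mean of 30.5 ± 14% in the 6 female and 7.84 ± 7.08% in the 6 male libraries (log2 difference of the ratio 2.53 ± 0.53 SE, adjusted p = 0.337 by limma). Without M KSR5 replicate 3 the difference was 2.94 ± 0.43 with adjusted p = 0.0447. Libraries of 1 line share a clone and there were 2 lines of each sex, so sex and line cannot be told apart.

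Against TX 2i ESCs, 6 of the 33 genes (18.2%) differed in share from the mean of the 4 iPSC lines, near the 16.5% of all genes tested that did. Of these, 4 were more maternal in iPSCs (background 12.6%): Sfn by 1.11 ± 0.25 on the log2 scale, Nfatc3 by 1.94 ± 0.41, Plagl1 by 0.89 ± 0.25 and Meg3 by 1.65 ± 0.33, with adjusted p of 0.00467, 0.00293, 0.0224 and 0.00176 by limma. The other two were less maternal in iPSCs (3.93%), Snrpn at -2.73 ± 0.36 and Myo7a at -2.78 ± 0.59, with adjusted p of 5.6e-05 and 0.00303. The iPSC lines were not alike in this: for Meg3 TX 2i ESCs lay next to M KSR3 and far from M KSR5, and for Snrpn next to F KSR2. The genes around Sfn had a median of 32.5% in TX 2i ESCs, and its difference was 0.60 ± 0.18 without TX 2i ESCs replicate 1.

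**Figure D4:**
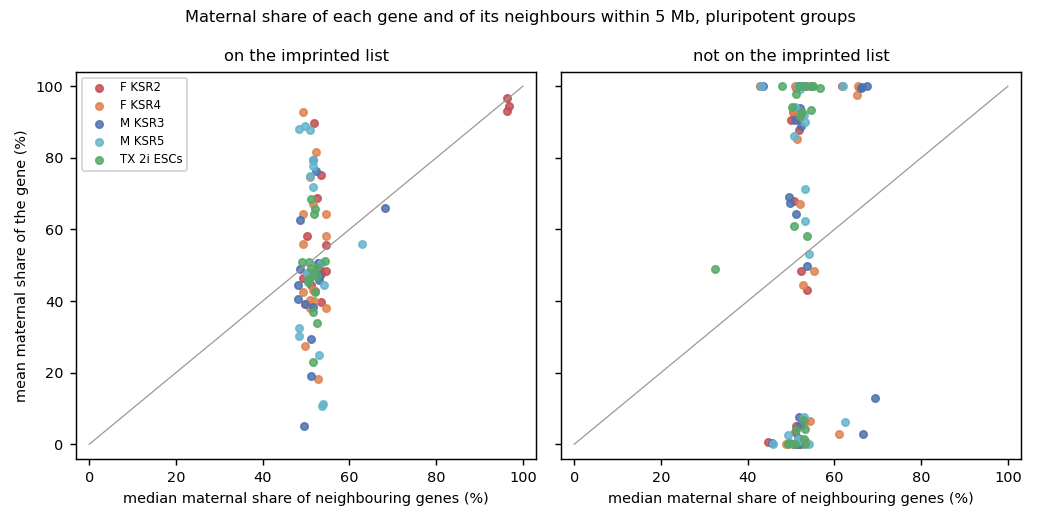
Mean maternal share (%) of each readable gene in each pluripotent group against the median maternal share (%) of the other genes within 5 Mb, with listed genes on 1 panel and unlisted genes on the other. The 3 chromosome 6 genes of F KSR2 sit at the upper right of the listed panel, and most unlisted points lie along the top and bottom whatever their neighbours.

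The unlisted genes Thy1, Sfn and Apobr were two-sided in every readable group, as most listed genes were. Thy1, a surface glycoprotein used as a fibroblast marker, was read to 95.1, 97 and 97.3% from the maternal allele in MEFs. It had 61.2, 39.5 and 44.1% for F KSR2, 43.6, 60.5 and 40.7% for F KSR4, 71.4, 63.9 and 57.5% for M KSR3, 41.9, 34.4 and 83.3% for M KSR5 and 55.8, 60.2 and 66.7% for TX 2i ESCs. The level was lower as well, with the maternal allele at 43.2 ± 3.93 RPM in MEFs and between 1.35 and 5.31 elsewhere, while the paternal allele was at 1.63 ± 0.71 in MEFs and between 1.09 and 3.46 elsewhere. The larger change in level was thus in the maternal allele.

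Sfn, which encodes 14-3-3 sigma, a regulator of the cell cycle in epithelia, had 93.3, 98.4 and 98.1% maternal reads in MEFs. It was at 69.9, 67.5 and 66.5% for F KSR2, 66.2, 70.4 and 64.6% for F KSR4, 71.9, 67.4 and 68.3% for M KSR3 and 76.1, 71 and 66.6% for M KSR5, a range of 64.6 to 76.1% over the 12 iPSC libraries. In TX 2i ESCs it was 32, 52.8 and 62%, where neighbouring genes had a median of 32.5%. Sfn was called to the maternal side in each iPSC line (log2 ratios 0.88 to 1.17) and not in TX 2i ESCs (-0.12 ± 0.28, adjusted p = 0.787 by limma). Apobr, a receptor for apolipoprotein B, went from 92.2, 91.5 and 91.1% in MEFs to group means between 43.2 and 62.3%, with SDs of 7.59 to 13.5 points.

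The 15 genes that remained one-sided, 8 maternal and 7 paternal, were put together for their shares in the pluripotent groups, so their closeness to MEFs is a description. They differed by at most 5.38 percentage points from their MEF mean in any of 74 readable pairs of a gene and a group, and the median difference was 0. Of the 14 matched in GENCODE vM21, 10 were pseudogenes there, 12 of the 15 were pseudogenes in RefSeq, and 11 had a single exon. By MEF reads the leading maternal ones were Ubb, Gm8730, Rpsa-ps2, Gm10259 and Rpl31-ps8. Gm8730 had 200, 248 and 256 allelic reads in the MEF libraries, none of them paternal, and 1 paternal read in its 15 pluripotent libraries, in M KSR3 replicate 2. The leading paternal ones were Gm6180, Gm5805, Gm8894, Gm5620 and Gm10076. Gm5805 lay on chromosome 15, and in M KSR5, where neighbouring genes had a median of 62.4%, its maternal share was 6.32, 6.34 and 6.11%, against 2.88, 4.9 and 4.44% in MEFs. These pseudogenes are near copies of expressed genes, so a share at them rests on reads that could have come from the parent gene.

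Coding genes were few in this class. Ubb, which encodes polyubiquitin, had 92.7, 90.5 and 93.9% maternal reads in MEFs and group means of 92.9 to 94.2% in the pluripotent cells, with between 561 and 1100 allelic reads a library. Nfatc3, a calcium-regulated transcription factor chosen for naming after its values were seen, had 100, 96.4 and 100% in MEFs, means from 97.5 to 100% in the iPSC lines and 95.6, 93.2 and 91.5% in TX 2i ESCs. In F KSR4 and M KSR3, where its neighbours stood at 65.1 and 66.1%, its share was 97.5 and 99.5%. Only 2.54% of the Nfatc3 reads could be assigned to an allele, where the median over the 48 genes was 18.6%, so its share stands for a small part of the transcript.

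**Figure D5:**
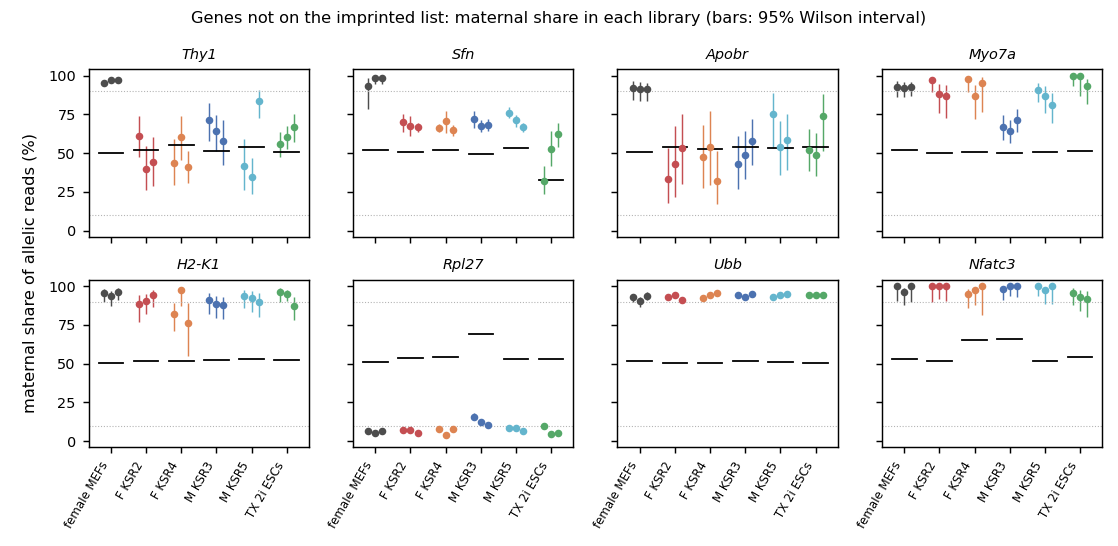
Maternal share (%) of 8 unlisted genes in each library with at least 10 allelic reads, by group, with Wilson 95% intervals and the median of neighbouring genes within 5 Mb as a black dash. Thy1, Sfn and Apobr leave the upper edge in pluripotent cells, Ubb and Nfatc3 remain there, and Myo7a leaves it most in M KSR3.

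A further 4 unlisted genes were one-sided in some groups only, and 3 of these kept near the limit. Rpl21 and Rpl27, which encode ribosomal proteins, had group means of 87.7 to 91.7% and of 6.49 to 12.8%. H2-K1, the only MHC class I gene of the 48, had 95.7, 93.6 and 96.4% in MEFs and means of 85.3 to 92.9%. These 3 thus crossed the limit by a few points. Myo7a, an unconventional myosin of hair cells and retina, moved further and was, like Rpl21 and Rpl27, named after its values were seen. It had 92.7, 92.2 and 92.6% in MEFs, 96.9, 87.8 and 86.8% for F KSR2, 98, 86.5 and 95% for F KSR4, 90.6, 86.7 and 81% for M KSR5, 100, 100 and 93.2% for TX 2i ESCs, and 66.9, 64 and 71.5% for M KSR3. The M KSR3 libraries lay below all others, while neighbouring genes had medians of 49.8 to 51.9% in all groups. The summed level of 5 trophoblast or endoderm markers was also highest in M KSR3, at 0.00859 to 0.0107% of reads against at most 0.00374% in any other group, and its part in the Myo7a share was not tested. Its paternal allele was at 2.98 ± 0.403 RPM in M KSR3 and at most 0.615 elsewhere.

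Another 7 unlisted genes could be read in fewer than 4 groups. Lyz1, a lysozyme, had 20, 23 and 30 allelic reads in MEFs, all paternal, and none in any pluripotent library. Clca1, whose measured feature overlaps Clca3a1 on the same strand, had 537, 796 and 690 in MEFs and at most 14 in a pluripotent library. Igf2as, an antisense transcript at Igf2, had no maternal read in MEFs and at most 9 allelic reads in any other library. Snph, which anchors mitochondria in axons, remained one-sided in the 3 groups where it could be read, with 0, 3.7 and 18.8% in M KSR3.

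The genes just inside the limit on the maternal side were Ubb, Rpl21 (94.3, 90.7 and 92.5%) and Apobr. Just outside were H2-D1, an MHC class I gene (90.2, 93.2 and 88.7%), the listed gene Asb4 (92.3, 88.6 and 100%) and Stmn1 (88.5, 100 and 91.2%). On the paternal side Clca1 (9.31, 3.02 and 3.48%), Dlk1 (5.21, 7.58 and 7.74%) and Snph (0, 6.82 and 5.41%) were just inside, and Rpl36-ps3 (6.76, 10.1 and 9.47%), Bend6 (9.38, 9.01 and 11.1%) and Ppbp (13.9, 6.64 and 6.23%) just outside.

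The level of all reads, whichever allele they came from, was compared on the deposited log2 scale. Between female and male iPSCs 1 of 45 genes tested was called, where 2.87% of all genes were. It was Myo7a, lower in female lines by 1.13 on the log2 scale with an SE of 0.25 (log2 difference -1.13, adjusted p = 0.0214 by limma), and the call was lost with line as a random effect (adjusted p = 0.0591), with line means (0.401) or without any 1 of the M KSR3 libraries. The median difference was 0.10 over the 45 genes and -0.11 over all genes.

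Against TX 2i ESCs, 12 of the 45 genes differed in level from the mean of the iPSC lines (21.5% of all genes did). Of the 12, 8 were higher in iPSCs (background 10.2%), among them Cdkn1c at 2.69 ± 0.36, Clca1 at 2.51 ± 0.71, Sfn at 2.02 ± 0.51, H19 at 1.82 ± 0.50 and Meg3 at 1.28 ± 0.39, with Pon2, Myo7a and Rpl21 below 1. The other 4 were lower in iPSCs (11.4%): Plagl1 at -4.13 ± 0.44, Thy1 at -1.57 ± 0.28, Peg12 at -1.16 ± 0.38 and Grb10 at -0.89 ± 0.28. Adjusted p by limma was 1.2e-05 for Plagl1, 8.2e-05 for Cdkn1c and 0.000999 for Thy1, and these 3 were called whichever library was left out. Clca1 had few reads in every pluripotent group. Its mean log2 level was -3.31 in TX 2i ESCs, -2.77 for M KSR3, -0.57 for F KSR2, -0.29 for F KSR4 and 0.46 for M KSR5. The call of Clca1 was lost without M KSR5 replicate 3, among others, that of Pon2 was kept only without F KSR4 replicate 2, and that of Myo7a only when an F KSR4 library was left out. The median difference was 0.18 over the 45 genes and -0.02 over all genes, and the count fell to 5, 4 or 7 when TX 2i ESCs replicate 1, 2 or 3 was left out. Thy1 is itself on the fibroblast marker list, whose summed level was 0.144 to 0.198% of reads in TX 2i ESCs and 0.0902 to 0.264% in the iPSC lines.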

How the data were processed

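RNA-seq libraries of MEFs from females, of the iPSC lines F KSR2 and F KSR4 (female) and M KSR3 and M KSR5 (male), and of TX 2i ESCs were analysed (3 each), and grouped by their labels. Per the labels and the study's methods, the authors trimmed reads with Trim Galore (0.6.1), aligned them with HISAT2 (2.1.0) to GRCm38, kept as allelic those specific to the BL6 or the CAST genome, and counted them by strand per gene in SeqMonk. The values they deposited are log2 RPM of all, BL6 and CAST reads, without length correction, in which 0 reads are held at 0.9 read. Reads mapping less well from the CAST allele would move the shares, which is why each library's ratio was centred on its median.

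Allelic reads were recovered from the steps between low values (99.97% or more of values lay within 0.05 read of a whole number), and the maternal share is BL6 reads over the sum of both alleles. Intervals of single shares are Wilson 95%, and 0 reads allow up to 3. Both cover counting error only. Tests used limma (3.58.1) in R (4.3.3), on log2((maternal + 0.5)/(paternal + 0.5)) minus the library median for shares and on the deposited log2 values for levels, with a trended prior, Benjamini-Hochberg adjustment over all genes tested and a threshold of 0.05. A share was tested for genes with at least 10 allelic reads in every library of the comparison, and a level for genes above 0 in at least 3. Table handling used pandas (2.3.3), scipy (1.17.1) and numpy (2.4.6) under Python (3.11.15), and the fits were tested on simulated data. Promoters came from RefSeq on GRCm38.p6 and gene types from GENCODE vM21 and RefSeq, matched by symbol, since the deposited table gives some symbols the identifier of an overlapping gene. Where genes overlap, which of them a value belongs to is uncertain.

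The genes and the lists of imprinted and marker genes were chosen with earlier results of these data known. Named were all listed genes, the 5 unlisted genes on each side with most MEF reads among those one-sided throughout, unlisted genes two-sided throughout, MHC class I genes and the 3 genes nearest each limit on either side. Others are said to have been named after their values were seen, and so are Lyz1, Igf2as and the genes called in a comparison. The amplicon methylation samples of the series were not analysed here. Alternatives were other read limits, share limits, pseudocounts, centring, filters, fits with a replicate block or line effect, limma-voom on recovered reads, and leaving out each library.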

Additional observations from a re-analysis of the deposited data

Results flagged for a closer look

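The maternal share of 14 genes differed among the 5 pluripotent groups by a limma F-test over all genes. The values here are the highest minus the lowest group mean, in percentage points, with the adjusted p of that test.

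The chromosome 6 genes spanned widely, Mest 83.2 (1.5e-06), Sgce 66.6 (1.1e-05) and Peg10 60.5 (4.7e-08), with F KSR2 as the highest group, where genes around them were read to 96.4 or 96.9% from the maternal allele. Meg3 spanned 68.7 (3.3e-07) between M KSR5 and M KSR3, and Snrpn 46.2 (2.6e-06) between TX 2i ESCs and M KSR3. Both kept neighbour medians between 49.6 and 54.7% in every group.

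Peg3 spanned 25.9 (0.000682), Plagl1 21.3 (0.00126), Zdbf2 18.8 (0.000144), Impact 15.3 (0.0134) and Slc38a4 12.6 (0.0158). For Zdbf2 the highest group was M KSR3, with neighbours at 68.2%, and for Slc38a4 it was M KSR5, with neighbours at 62.8%.

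Among unlisted genes Myo7a spanned 30.3 (0.00223), with M KSR3 lowest, Sfn 22.3 (0.0253), with TX 2i ESCs lowest and neighbours there at 32.5%, Nfatc3 6.57 (0.00326), with TX 2i ESCs lowest, and Rpl27 6.31 (0.0379), with M KSR3 highest and neighbours there at 69.4%. The part of the chromosome-wide imbalance in these differences was not tested.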

How the results depend on the processing

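The number of genes chosen depended on the limits: 79 with limits of 20 and 80%, 36 with 5 and 95%, 71 with a minimum of 10 allelic reads, 30 with 50, 47 from the deposited values without recovering reads, and 54 to 60 when 1 MEF library was left out. With a minimum of 5 reads for a share, 7 genes in place of 11 could be read in fewer than 4 groups, since more pairs pass. Counts of 48 genes' classes and of calls in each group were otherwise within 1.5 times of those reported under every alternative run. Without M KSR5 replicate 3, Grb10 and Meg3 left the class that was two-sided throughout, and Mest, Snrpn and Pon2 (90.5%) were one-sided in M KSR5. Cdkn1c (79.4% with that library) and Dlk1 (74.8%) could then no longer be read in M KSR5. Gm8894 could be read in fewer than 4 groups without M KSR3 replicate 2 or 3.

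For female against male iPSCs, the count for shares was 0 to 1 and for levels 0 to 2 when 1 library was left out, with Snrpn as the added gene (level 0.95 ± 0.25, adjusted p = 0.0485 by limma without M KSR5 replicate 3, and 0.0496 without F KSR4 replicate 2). For levels it was 0 with line as a random effect and 0 with line means. For levels of iPSCs against TX 2i ESCs it was 4 to 16 when 1 library was left out, with 16 without F KSR4 replicate 2, and 6 with no filter. The cause was not tested. Leaving out 1 library also took the largest adjusted p of the test among groups past 0.05 for Sfn (0.0932), Rpl27 (0.224), Slc38a4 (0.0886) and Impact (0.102), and that of Plagl1 against TX 2i ESCs (0.0965 without a TX 2i ESCs library). Over all, 163 alternatives for single genes kept the call and 27 lost it, and none turned a direction.

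Without centring, the maternal share of calls over all genes went from 58.6 to 73.1% in F KSR2, from 59.5 to 75.6% in F KSR4, from 55.9 to 77.2% in M KSR3, from 54.9 to 73.7% in M KSR5 and from 47.2 to 52% in TX 2i ESCs, and for iPSCs against TX 2i ESCs from 76.2 to 86.7%, with medians moved to 0.05 to 0.19. Correlations of same-numbered libraries were -0.31 to 0.59, with 14 of 30 over 0.1. In 29 of 60 comparisons of a library with another group, the library correlated best with its own number. Every number was over 0.1 for TX 2i ESCs with F KSR2 and with F KSR4 and for no other pair of groups, so the numbers were not taken to pair samples. With the replicate block the counts were 14 among groups, 0 and 6 for shares of female against male and of iPSCs against TX 2i ESCs, and 1 and 11 for levels. Depth limits Igf2, Ndn, Dlk1, Peg12, Cdkn1c and Pon2, whose shares rest on under 50 reads a library.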
